A study of Mus musculus with 8 samples.

Results

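The genes described here encode the VEGF and angiopoietin receptors and their ligands, and comprise Kdr, Flt1, Tek, Tie1, Nrp1, Nrp2, Vegfa, Vegfb, Angpt1 and Angpt2, which are 10 of the 52636 gene rows of the deposited table. They were chosen by symbol. Kdr was picked for its high read numbers in 3 control libraries and Tek for its higher values in exercise mice, so the values of these 2 genes are given as a description without a test, and the other 8 were included as members of the same family. The study asked how treadmill training affects the transcriptome of satellite cells (SCs), which are muscle stem cells. Both groups were male C57B/6J mice with no transgene or deletion named in the sources used here, 10 weeks old at the start. Exercise mice ran on a treadmill for 4 weeks, on 4 days per week, for 30 min per day at 12 m per min, and control mice remained sedentary. About 800 SCs per library were sorted from the tibialis anterior, by staining for CD34 and α7-integrin without CD31, CD45, CD11b or Sca1, and 4 control and 4 exercise libraries were sequenced.

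VEGF ligands are secreted growth factors that bind receptor tyrosine kinases on endothelial cells. KDR (VEGFR2) carries most of the growth and migration signal of VEGF-A, FLT1 (VEGFR1) binds the same ligand and acts largely as a decoy, and neuropilins serve as co-receptors that also bind semaphorins. TEK (Tie2) is the receptor of the angiopoietins, and TIE1 is its partner without a well established ligand of its own. In skeletal muscle these genes are best known from capillary endothelium, and muscle fibres and SCs are known sources of VEGF-A. The CD31 gate of the sort removes endothelial cells.

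Values are FPKM (reads divided by gene length and library size), which the authors had scaled between libraries with median-of-ratios size factors. Because the values are whole multiples of what 1 read is worth, the reads behind each value could be recovered. Control libraries held 2339966 to 3013354 reads on genes and exercise libraries 1011737 to 1200221, and the number of genes with a read was 5169 to 7307 and 2348 to 3289, respectively. Mitochondrial transcripts took 2.09% to 15.3% of reads in control libraries, 7.56% to 7.85% in exercise 1 and 2, 50.2% in exercise 3 and 68.7% in exercise 4. Within a group the libraries were unlike each other, except for exercise 1 and 2, whose reads gave a chi-square per degree of freedom of 3.86, against 82.6 to 711 in the other pairs of a group. Exercise 1 and 2 may thus not be separate samples, and results are also given with the 2 averaged. The labels give 4 samples per group, but if libraries share material, p-values measure the spread between libraries, which may be technical. Where a library held no read of a gene, 3 reads were taken as its floor, and floors cover counting error alone, because reads were amplified and do not count molecules.

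The 250 bases upstream of the transcript start are shown for the 3 members that the results turn on, from RefSeq on GRCm38.p6, written 5′ to 3′ on the strand of the gene. Capitals mark GGAA or its reverse complement TTCC, the core that ETS factors bind, a family with a known part in endothelial genes. The Kdr stretch lies at chr5:75978456-75978705 on the minus strand, that of Tek at chr4:94739039-94739288 on the plus strand and that of Vegfa at chr17:46032378-46032627 on the minus strand.
Kdr: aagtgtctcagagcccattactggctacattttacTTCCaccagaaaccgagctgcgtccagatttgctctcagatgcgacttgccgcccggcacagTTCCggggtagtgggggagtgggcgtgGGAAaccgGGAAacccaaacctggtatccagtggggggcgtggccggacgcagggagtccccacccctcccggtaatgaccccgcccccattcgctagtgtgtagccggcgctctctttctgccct
Tek: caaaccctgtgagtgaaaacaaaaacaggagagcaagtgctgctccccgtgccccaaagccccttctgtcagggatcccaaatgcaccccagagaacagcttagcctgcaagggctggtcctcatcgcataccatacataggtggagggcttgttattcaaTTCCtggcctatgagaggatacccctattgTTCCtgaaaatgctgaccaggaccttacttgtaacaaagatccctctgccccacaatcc
Vegfa: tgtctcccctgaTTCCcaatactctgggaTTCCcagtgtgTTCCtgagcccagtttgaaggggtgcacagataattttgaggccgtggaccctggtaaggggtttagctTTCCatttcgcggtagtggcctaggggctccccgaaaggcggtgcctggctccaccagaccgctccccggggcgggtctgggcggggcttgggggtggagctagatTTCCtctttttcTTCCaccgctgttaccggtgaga
These windows held 4 ETS cores at Kdr, 2 at Tek and 6 at Vegfa, counted on both strands. The core is short and common, and 93.4% of 32851 RefSeq promoters of the same length hold at least 1. As many as at Vegfa occurred in 8.69% of promoters, as many as at Kdr in 33.4%, and as many as at Tek in 76.8%. The hypoxia response core (ACGTG or GCGTG), which 38.6% of promoters hold, matched 2 times at Kdr and 0 times at Tek and Vegfa. A GC box (GGGCGG), found in 32.7% of promoters, matched 2 times each at Kdr and Vegfa and 0 times at Tek, and TATAAA (12.4% of promoters) matched at none of the 3. No matches overlapped each other. The table used here held promoters for 8 of the 10 members, without Angpt1 and Angpt2. A match describes letters and does not show a site in use.

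Of the 10 members, 6 had a read in at least 1 library, beside 9029 of all 52535 gene symbols. Tie1, Nrp2, Angpt1 and Angpt2, which are 2 of the 6 receptors and 2 of the 4 ligands, had no read in any of the 8. The 3 members whose mean over all libraries reached 1 FPKM (Kdr, Tek and Vegfa) entered the test across genes, while Nrp1, Vegfb and Flt1 had reads but fell below that filter. On the per-length scale, mean levels over the 8 libraries ran from Kdr (717 FPKM) through Tek (8.63 FPKM) and Vegfa (4.58 FPKM) to Nrp1 (0.488 FPKM), Vegfb (0.412 FPKM) and Flt1 (0.0417 FPKM). Vegfa was therefore the member just inside the filter and Nrp1 the member just outside. The order of neighbours among the last 5 is not firm, since their ranges over libraries overlap, and the place of Kdr rests on 3 libraries. The order also differs by group. In control Tek had the lowest mean of the 6 (0.0231 FPKM). In exercise the mean of Kdr (0.219 FPKM) was below those of Tek (17.2 FPKM), Vegfa (1.29 FPKM) and Nrp1 (0.655 FPKM).

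Of the 8 members included by family, 1 was tested and 0 were called at a limma adjusted p under 0.05, beside 35.6% of all 4328 genes tested. Per direction, 8.78% of those genes were called higher and 26.8% lower in exercise. Their median log2 change was -1.42, so a gene of typical behaviour lay below 0. Under quantile normalization the median was -0.69, and the split of calls went from 380 higher and 1161 lower to 509 higher and 481 lower.

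**Figure D1:**
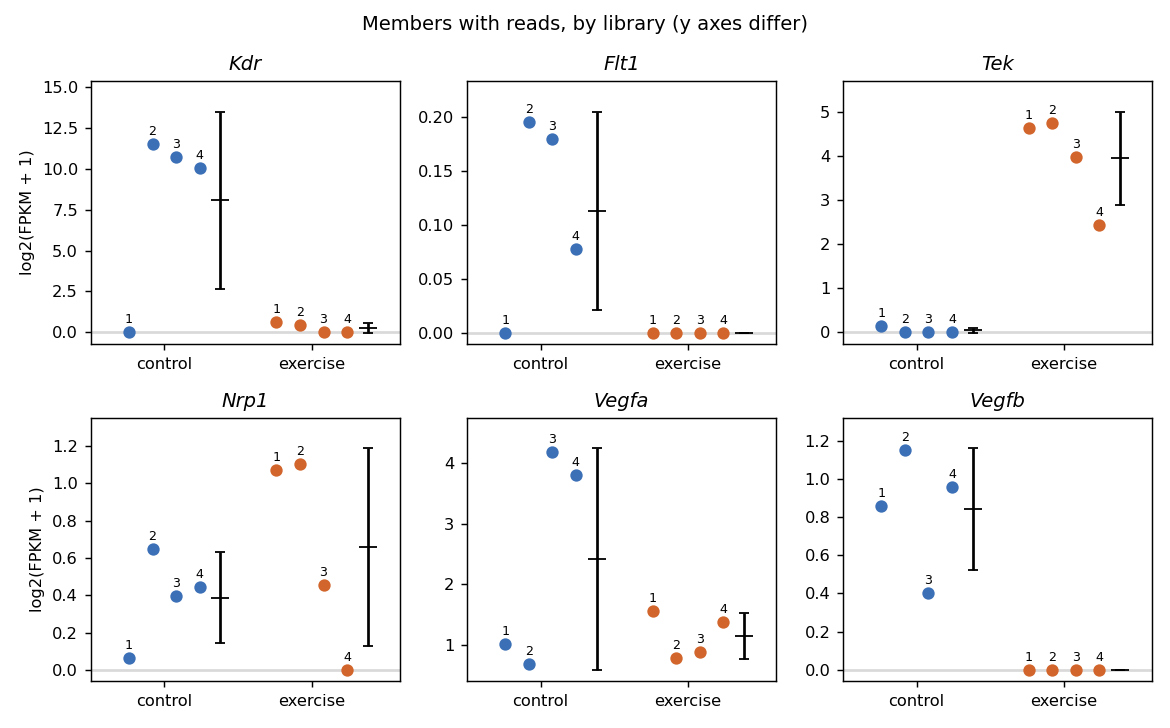
Level of each of the 6 members with reads, as log2(FPKM + 1) on the y axis (scales differ between panels), by group on the x axis. Points are libraries labelled with their replicate number, and bars give the mean ± SD of 4 libraries. Kdr is high in control 2, 3 and 4 and at 0 in control 1, Tek is above control in all 4 exercise libraries, and Vegfa is high in control 3 and 4.

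Kdr (ENSMUSG00000062960) spans chr5:75932827-75978458 on the minus strand. Its level was 0 FPKM in control 1, 2994 FPKM in control 2, 1669 FPKM in control 3 and 1076 FPKM in control 4. In exercise 1 it was 0.530 FPKM and in exercise 2 it was 0.347 FPKM, while exercise 3 and 4 were at 0. Control 2 to 4 were thus far above all exercise libraries, but the groups overlapped because control 1 had no Kdr read. The recovered reads numbered 82786 in control 2, 58824 in control 3 and 38702 in control 4, or 3.11%, 1.95% and 1.39% of all reads on genes. By FPKM, Kdr ranked 22nd, 37th and 46th among the genes of these libraries, and it ranked 2319th in exercise 1 on 8 reads and 2480th in exercise 2 on 5 reads. A receptor mRNA at that rank stands among the most abundant transcripts of the library. Zero reads allowed up to 0.145 FPKM in control 1, 0.300 FPKM in exercise 3 and 1.15 FPKM in exercise 4, so control 1 stayed far below the other controls at its floor.

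The control mean of Kdr was 1435 ± 1248 FPKM (SD, n = 4) and the exercise mean 0.219 ± 0.264 FPKM (SD, n = 4), a log2 difference of -7.82 with a standard error of 2.20 on the log2(FPKM + 1) scale. Without control 1 the control mean was 1913 FPKM and the log2 difference -10.51, and without control 2 they were 915 FPKM and -6.67. Averaging exercise 1 and 2 gave -7.91, and a further fit without control 4 and exercise 3 gave -7.16. Kdr had at least 1 FPKM in 3 libraries, so a filter of 1 FPKM in 4 libraries left it out. The length used for its FPKM, 9030 bases, is 1.52 times the longest coding transcript of the annotation (5924 bases). Over that transcript its control values would be 4564, 2544 and 1640 FPKM, with the ratios between libraries unchanged. No annotated gene that overlaps a member on the genome had a read in these libraries.

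The Kdr level went along with that of many genes outside the family. The 5 tested genes whose log2 levels were most like it over the 8 libraries were Lrp3, Mlxipl, Rnf166, Pdrg1 and Nrbp1, with Pearson r from 0.999257 (Nrbp1) to 0.99961 (Lrp3), given as a description. Lrp3 is a lipoprotein receptor relative, and Mlxipl encodes the glucose-responsive factor ChREBP. Rnf166 had 0 FPKM in control 1, 3602 in control 2, 2003 in control 3 and 1415 in control 4, and less than 1 FPKM in each exercise library. Of 4327 other tested genes, 281 (6.49%) had an r with Kdr of at least 0.99 and 603 (13.9%) of at least 0.95. Points in these correlations share library and depth, and a gene high in 3 libraries and near 0 in 5 reaches a high r easily. None of the 5 belongs to the VEGF or angiopoietin family or to the endothelial list.

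The share of reads taken by Kdr also fell from control 2 to control 4 as it did for genes found in the same libraries. It was 0.628 of the control 2 share in control 3, where the median over 531 other genes (50 reads or more in control 2, no read in control 1) was 0.674 (quartiles 0.601 to 0.754). In control 4 it was 0.446 of the control 2 share, where that median was 0.487 (quartiles 0.425 to 0.565). In both libraries Kdr therefore lay between the quartiles of these genes. Kdr was picked for its reads in control 2 to 4, and these genes for theirs in control 1 and 2, so this is a description without a test.

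Tek (ENSMUSG00000006386) spans chr4:94739289-94874976 on the plus strand. Its level was 0.0925 FPKM in control 1, from 1 read, and 0 in the other 3 controls. It was 23.99 FPKM in exercise 1, 25.8 FPKM in exercise 2, 14.7 FPKM in exercise 3 and 4.42 FPKM in exercise 4. Every exercise library was above every control library, which is the rise that Tek was picked for. The groups did not overlap for 31.6% of all 4328 genes tested. Exercise 4, the highest in mitochondrial reads, was the lowest of the 4 exercise libraries. The recovered reads were 189, 194, 77 and 6 in exercise 1 to 4, so the last value rests on few reads. The library ranks were 690 and 672 in exercise 1 and 2, and 922 and 1469 in exercise 3 and 4, among 3036, 3021, 3289 and 2348 genes with reads in exercise 1 to 4.

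The control mean of Tek was 0.0231 ± 0.0463 FPKM (SD, n = 4) and the exercise mean 17.2 ± 9.82 FPKM (SD, n = 4), a log2 difference of 3.92 with a standard error of 0.69. Zero reads allowed 0.160 to 0.208 FPKM in control 2 to 4. The difference was 3.67 when exercise 1 and 2 were averaged, 3.52 when that fit also lacked control 4 and exercise 3, and 4.42 without exercise 4.

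Genes of other kinds shared the Tek pattern too. The 5 most like it were Dhrs7, Cpsf3, 6030408B16Rik, Shmt2 and Ppip5k2, with r from 0.999202 (Ppip5k2) to 0.999521 (Dhrs7) over the 8 libraries. Shmt2, the mitochondrial serine hydroxymethyltransferase, had 165, 181, 91.4 and 13.4 FPKM in exercise 1 to 4 and at most 0.105 FPKM in control. Cpsf3, the endonuclease that cleaves pre-mRNA before polyadenylation, had 74.3, 80.4, 43.4 and 10.5 FPKM in exercise 1 to 4. Of the other tested genes, 72 (1.66%) had an r with Tek of at least 0.99 and 203 (4.69%) of at least 0.95.

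Between exercise libraries the share of Tek was compared with that of 120 other genes (50 reads or more in exercise 1, at most 3 in all controls together). From exercise 1 to exercise 2 its share was 1.07 times as high, where the median of these genes was 0.979 (quartiles 0.874 to 1.06). In exercise 3 it kept 0.359 of its share (median 0.315, quartiles 0.276 to 0.351) and in exercise 4 it kept 0.0291 (median 0.0073, quartiles 0 to 0.0161). Like these genes, Tek had a smaller share in the libraries with the most mitochondrial reads, and in each of the 3 its ratio was above the upper quartile of these genes. The ratio in exercise 4 rests on 6 Tek reads. Tek and these genes were both chosen for their reads in exercise, so this is a description without a test.

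**Figure D2:**
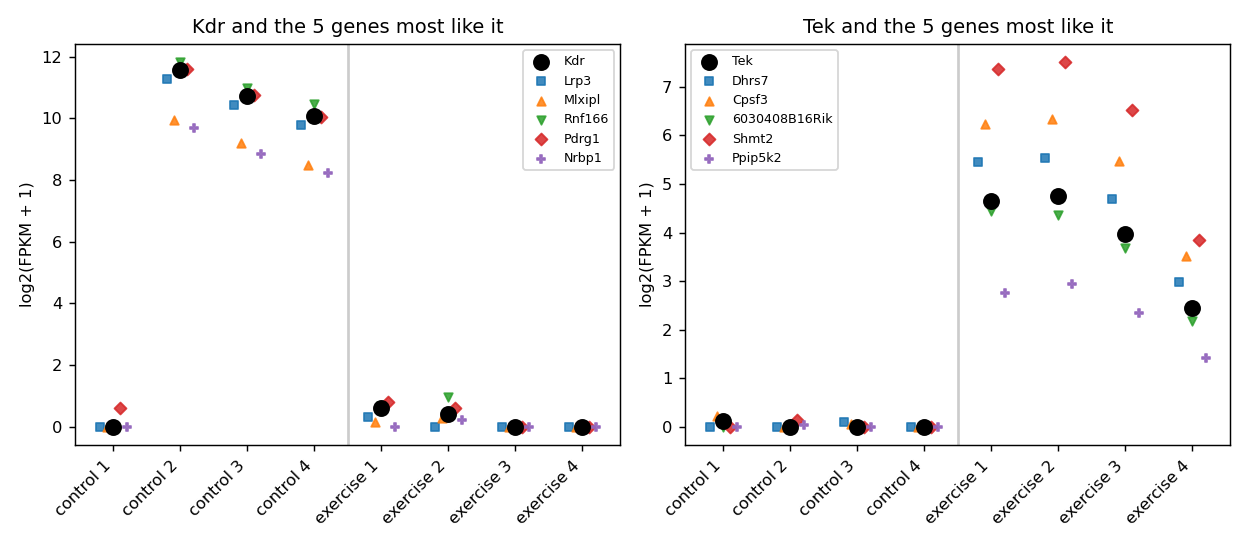
Levels of Kdr (left) and Tek (right) with the 5 tested genes most like each, as log2(FPKM + 1) on the y axis, for the 8 libraries on the x axis. Black circles are Kdr or Tek, and other symbols are the 5 genes, each shifted slightly sideways. All 6 genes of the left panel are high in control 2 to 4 and below 1 on this scale elsewhere, and all 6 of the right panel are high in exercise, lowest in exercise 4.

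The decoy receptor Flt1 (ENSMUSG00000029648, chr5:147561604-147726011, minus strand) was near its detection limit in SCs. It had 0 FPKM in control 1, 0.145 in control 2, 0.133 in control 3 and 0.0558 in control 4, from 0, 6, 7 and 3 reads, and no read in exercise. Floors in exercise were 0.133 to 0.771 FPKM, and in exercise 3 and 4 they were above every control value. The log2 difference was -0.11 (exact two-sided permutation p = 0.143), with overlapping groups. Thus a difference of Flt1 was not detectable at this depth. The 3 controls with Flt1 reads were those with Kdr, which had far more.

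The co-receptor Nrp1 (ENSMUSG00000025810, chr8:128358604-128503363, plus strand) was detected in 7 of 8 libraries, at low levels. Control values were 0.0446, 0.567, 0.314 and 0.359 FPKM in control 1 to 4, and exercise values were 1.10, 1.15, 0.369 and 0 FPKM in exercise 1 to 4. The last, with no read, has a floor of 1.06 FPKM. Exercise 1 and 2 were the highest of all and exercise 4 the lowest, so the groups overlapped. The means were 0.321 ± 0.215 FPKM in control and 0.655 ± 0.565 FPKM in exercise (SD, n = 4 each), and the log2 difference of 0.27 did not pass the exact two-sided permutation test (p = 0.371). Its gene length in the table is 2.72 times the longest coding transcript, so its FPKM is low for its reads.

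No read fell on Tie1 (ENSMUSG00000033191, chr4:118471191-118490061, minus strand), the partner of Tek, in any library. Zero reads allow up to 0.153 to 0.266 FPKM in control libraries and 0.365 to 2.12 FPKM in exercise libraries. Each exercise library therefore held Tek above the Tie1 floor of the same library. For Nrp2 (ENSMUSG00000025969, chr1:62703285-62818695, plus strand), a co-receptor for VEGF-C and class 3 semaphorins, the floors were 0.0636 to 0.110 FPKM in control and 0.152 to 0.879 FPKM in exercise.

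Vegfa (ENSMUSG00000023951, chr17:46016993-46032369, minus strand) encodes the main ligand of KDR and FLT1 and was the member read in all 8 libraries. It had 1.02 FPKM in control 1, 0.610 in control 2, 17.0 in control 3 and 12.9 in control 4. Exercise values were 1.95, 0.731, 0.842 and 1.62 FPKM in exercise 1 to 4. Control 3 and 4 were above all other libraries, whereas control 1 and 2 lay among the exercise libraries. The reads were 10, 8, 284 and 220 in control and 14, 5, 4 and 2 in exercise, and the value of exercise 4 is below its floor of 2.43 FPKM. The control values thus ranged from 0.610 to 17.0 FPKM, wider than the exercise values, from 0.731 to 1.95 FPKM.

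The means of Vegfa were 7.87 ± 8.32 FPKM in control and 1.29 ± 0.595 FPKM in exercise (SD, n = 4 each). The log2 difference was -1.26 with a standard error of 0.90, and it did not pass (limma adjusted p = 0.258, exact two-sided permutation p = 0.343). It was near the median of all genes, -1.42. Quantile normalization brought it to -0.01 (limma adjusted p = 0.995). Array quality weights, which give unlike libraries less weight and called 2978 of the 4328 genes tested, brought it to -2.43 (limma adjusted p = 0.00565). Without control 3 it was -0.68 and without control 4 it was -0.80. High values of Kdr and of Vegfa were shared by control 3 and 4 but not by control 2, which held the most Kdr and the least Vegfa of the controls. From control 3 to control 4 the Vegfa share of reads kept 0.837, where 111 other genes (50 reads or more in control 3, no read in control 1 or 2) kept a median of 0.707 (quartiles 0.622 to 0.807).

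Vegfb (ENSMUSG00000024962, chr19:6982473-6987651, minus strand), a ligand of FLT1, was read in all 4 controls and in no exercise library. Its control values were 0.815, 1.22, 0.319 and 0.938 FPKM, from 3, 6, 2 and 6 reads, with a mean of 0.823 ± 0.377 FPKM (SD, n = 4). The groups did not overlap, as for 20.3% of the 9029 genes with a read in any library, and the exact two-sided permutation p of 0.0286 is the smallest that 4 libraries against 4 can give. With all libraries thinned to an equal read number the log2 difference was -0.91 (exact two-sided permutation p = 0.0286), beside -0.84 at full depth. However, zero reads in exercise libraries allow 1.12 to 6.49 FPKM, above the control mean in each, and the control values rest on 2 to 6 reads. The log2 difference also depended on the processing, at -3.09 with a pseudocount of 0.1 and -0.38 under quantile normalization. These log2 values are therefore not estimates of the size of the difference, and no fold is printed.

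The angiopoietins, the ligands of TEK, were not read at all. Angpt1 (ENSMUSG00000022309, chr15:42424727-42676977, minus strand), the agonist, had floors of 0.177 to 0.307 FPKM in control and 0.422 to 2.45 FPKM in exercise. Angpt2 (ENSMUSG00000031465, chr8:18690263-18741562, minus strand), which opposes it in many settings, had floors of 0.204 to 0.354 FPKM in control and 0.486 to 2.82 FPKM in exercise. The receptor Tek thus stood above these limits in every exercise library while both ligands were without a read.

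Because KDR and TEK are endothelial receptors, the endothelial genes were read beside them. Of 32 endothelial markers, 25 had no read in any library, and these include all 10 of the defining genes checked (Pecam1, Cdh5, Emcn, Cldn5, Esam, Egfl7, Ecscr, Erg, Robo4 and Plvap). Over the whole table, 9029 of 52535 gene symbols had a read in any library, so most genes had none. Pax7 and Itga7, genes of the sorted cell type, had no read either. Pecam1 encodes CD31, and Ly6a, which had reads, encodes Sca1, both of them antigens gated out in the sort. The other 7 were Eng, Vwf, Ly6a, Clec14a, Cav1, Rgcc and Lpl, of which Cav1 and Lpl, read in all libraries, are not endothelial alone. The summed level of the list was 33.5, 105, 77.9 and 55.3 FPKM in control 1 to 4 and 69.8, 64.8, 46.6 and 39.0 FPKM in exercise 1 to 4, most of it Lpl (19.1 to 83.1 FPKM in control and 12.3 to 45.1 FPKM in exercise) except in exercise 4, where Rgcc at 22.7 FPKM was the largest part. In each of control 2 to 4, the libraries whose reads Kdr was picked for, the Kdr level was above this sum. Of the 4 markers tested, 0 were called at a limma adjusted p under 0.05, beside 35.6% of all genes. In these sorted pools fewer cells of a type and less RNA per cell cannot be told apart.

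**Figure D3:**
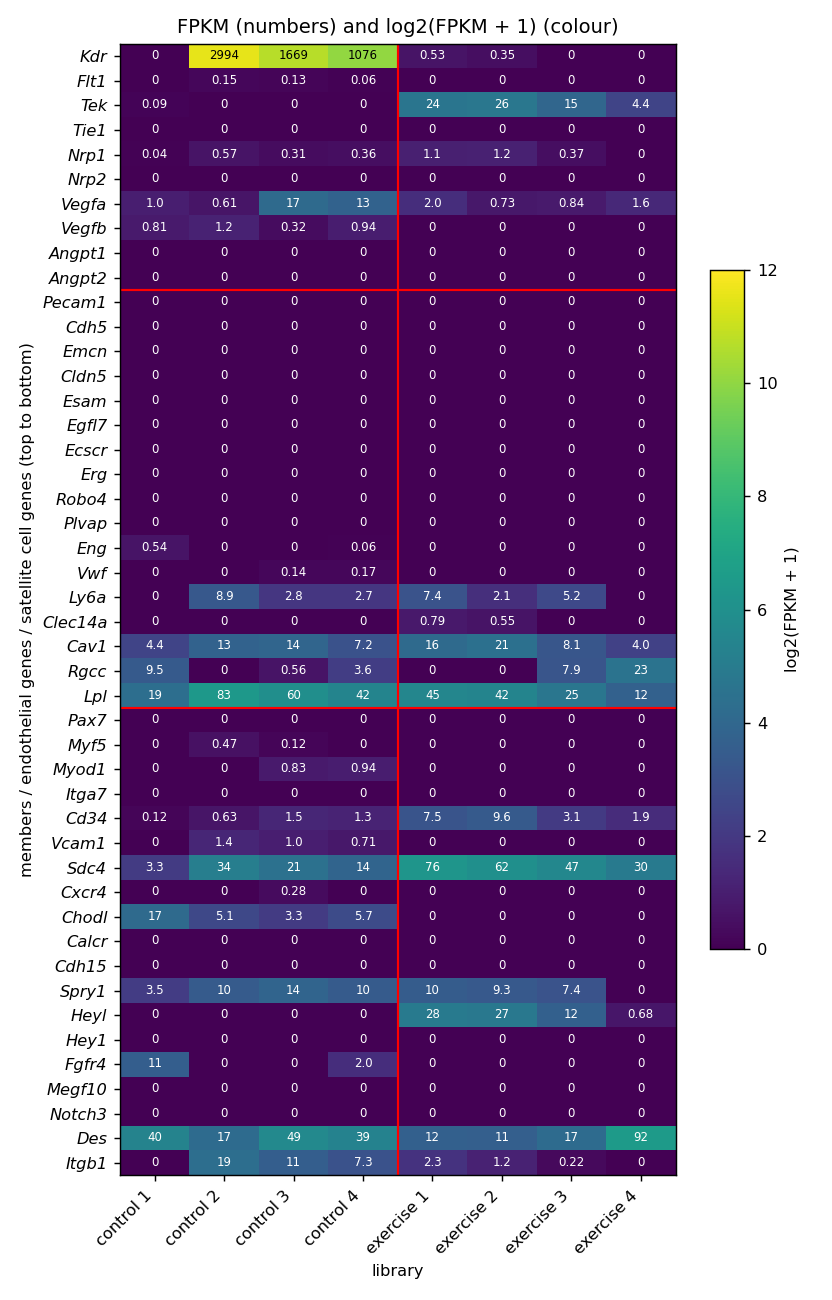
FPKM of the 10 members, of 17 endothelial genes (10 defining genes and the 7 others with reads) and of the 19 satellite cell genes, from top to bottom, in the 8 libraries. Numbers are FPKM, colour is log2(FPKM + 1), and red lines separate the lists and the groups. Kdr reaches 2994 FPKM in control 2 while all 10 defining endothelial genes are at 0 throughout.

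Some markers of other cell types moved with Tek. The smooth muscle myosin Myh11 had 0 FPKM in all controls and 70.1, 71.5, 35.6 and 3.14 FPKM in exercise 1 to 4, in the same libraries as Tek. Its log2 difference was 4.89 (limma adjusted p = 0.00646), and its exercise mean was 314 times the mean control floor of 3 reads. Acta2, the smooth muscle actin gene of the same list, did not share this pattern, with 0.734, 0, 43.3 and 35.1 FPKM in control 1 to 4 and 0, 0.352, 2.03 and 1.95 FPKM in exercise 1 to 4, and was not called (log2 difference -1.96, limma adjusted p = 0.22). The tendon factor Scx had 101, 102, 49.2 and 3.05 FPKM in exercise and at most 0.442 FPKM in control (limma adjusted p = 0.00844). Other tendon genes were not called: Thbs4 had a mean of 143 FPKM in control and 244 FPKM in exercise (log2 difference 0.72, limma adjusted p = 0.312), Tnmd had a mean of 404 FPKM in control and 492 FPKM in exercise (log2 difference -0.05, limma adjusted p = 0.959), and the log2 difference of Fmod was -0.26 (limma adjusted p = 0.822). The Notch target Heyl, on the satellite cell list, had 0 FPKM in control and 28.4, 27.2, 11.8 and 0.679 FPKM in exercise (limma adjusted p = 0.0212). The median log2 change of that list was -0.68, with 5 of 8 tested genes below 0, and Chodl, read in all controls, had no read in exercise (limma adjusted p = 0.00881). Sdc4 of the same list, with means of 17.9 FPKM in control and 53.6 FPKM in exercise, was not called (limma adjusted p = 0.101). The fibro-adipogenic gene Gsn was called higher and was above all controls in exercise 1 to 3, with 1173 to 1540 FPKM in control and 6902, 7201, 3693 and 1484 FPKM in exercise 1 to 4 (limma adjusted p = 0.0485). The pericyte and smooth muscle list as a whole did not follow: of its 15 genes 11 were at 0 in all libraries, among them Rgs5, Cspg4 and Kcnj8, and their sum was 18.1 to 261 FPKM in control and 15.6 to 242 FPKM in exercise, mostly Steap4. The part of such cells in the Tek and Kdr values was not tested.

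The label of the cells could be checked on the same table. Of 19 satellite cell genes, 7 had no read in any library, and these include Pax7, the defining transcription factor, and Itga7, which encodes the α7-integrin of the sort. Cd34, the other sort antigen, was read in all libraries. The satellite cell list summed to 74.6 to 102 FPKM in control and 86.6 to 137 FPKM in exercise, with 8 genes tested, 1 called higher (Heyl) and 1 lower (Chodl). Muscle fibre genes were far higher, with sums of 43464 to 102989 FPKM in control and 21017 to 111489 FPKM in exercise and 4 of 15 tested genes called lower, near the 26.8% called lower over all genes tested. Genes of fibro-adipogenic progenitors summed to 3556 to 5847 FPKM in control and 4045 to 10052 FPKM in exercise, with 2 of 15 called higher (Lum and Gsn) and 2 lower (Mfap5 and Col1a2). The tendon and glia list summed to 473 to 1013 FPKM in control and 243 to 1378 FPKM in exercise, with 1 of 6 called higher (Scx) and 1 lower, and all 15 leukocyte genes were at 0. These lists hold few tested genes, and over all genes tested 8.78% were called higher and 26.8% lower. The part of these RNAs in the members' values was not tested.

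The rest of the pathway was read from 4 lists, which together hold 91 genes in the table, 62 with reads and 33 tested. Of the 33, 14 fell in exercise and 0 rose at a limma adjusted p under 0.05, or 42.4% called lower, beside 26.8% lower over all genes tested. All 14 were lower under each alternative that gave a value for them. Of 32 tested without exercise 4, 2 were called higher (Ndrg1 and Pdgfrb) and 9 lower, beside 568 higher and 843 lower of all 4333 genes. Quantile normalization gave 2 higher (Hspb1 and Ndrg1) and 6 lower of 33, beside 509 higher and 481 lower of 4328. Array quality weights gave 3 higher (Hspb1, Ndrg1 and Pdgfrb) and 20 lower of 33, beside 815 higher and 2163 lower of 4328. These names were given after their values were seen. Averaging exercise 1 and 2 left 5 of 34 called, beside 596 of 4397. A further fit without control 4 and exercise 3 left 0.

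Among 11 other ligands and receptors of the family and the related PDGF system, 7 had no read, including the lymphatic ligands Vegfc and Vegfd and their receptor Flt4, and also Pgf and Angpt4. Of 3 tested, 1 was called, with a median log2 change of -1.65. Pdgfa, a growth factor ligand, had 1.96, 29.4, 15.7 and 10.8 FPKM in control and no read in exercise (limma adjusted p = 0.0104). The 2 PDGF receptor genes gave no call. Pdgfra had a mean of 20.3 FPKM in control and 5.56 FPKM in exercise (log2 difference -1.65, limma adjusted p = 0.084), and Pdgfrb had 2.91 and 10.8 FPKM (log2 difference 1.15, limma adjusted p = 0.287). Pdgfrb was high in the exercise libraries that held most Tek, with 17.5 and 17.4 FPKM in exercise 1 and 2, and 0.633 FPKM in exercise 4.

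Semaphorins and plexins, the other partners of the neuropilins, were sparse, with 6 of 12 genes at 0, 3 tested, 1 called lower and a median log2 change of -1.59. The called gene was Sema3c, a secreted ligand of neuropilin and plexin complexes, with 1.04, 71.5, 41.2 and 26.2 FPKM in control 1 to 4 and 0.168, 0, 0 and 0 FPKM in exercise (log2 difference -4.29, limma adjusted p = 0.0164). Among control 2 to 4 its order was that of Kdr, while control 1 held a low level of Sema3c and no Kdr. Sema3a, by contrast, was highest in control 1, at 14.2 FPKM against 0.628 to 2.99 FPKM in the other controls, and at most 0.604 FPKM in exercise (log2 difference -1.44, limma adjusted p = 0.142). The plexin receptor gene Plxna2 was read in control 1 and 4 alone, at 17.2 and 3.57 FPKM (limma adjusted p = 0.157).

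Of 46 signal transducers of the VEGF and Tie receptors, 33 had reads, 16 were tested, 6 were called lower and 0 higher, with a median log2 change of -1.98. They include Rac1, Map2k2, Akt1, Mapkapk2 and Grb2. The small GTPase gene Rac1 had 14.3, 56.9, 40.6 and 35.2 FPKM in control and at most 1.003 FPKM in exercise (log2 difference -4.58, limma adjusted p = 0.0019). The MEK2 gene Map2k2 had 14.2, 13.5, 8.82 and 8.996 FPKM in control and no read in exercise (log2 difference -3.60, limma adjusted p = 0.00214). Its control mean was 15.4 times the mean exercise floor of 3 reads. The kinase gene Akt1, downstream of both KDR and TEK, had 0, 12.0, 33.2 and 19.6 FPKM in control and no read in exercise (limma adjusted p = 0.0365). It shared the absence from control 1 with Kdr, but was highest in control 3, as Vegfa was. Cdc42 was not called (limma adjusted p = 0.965), with 39.1 to 64.4 FPKM in control, 5.44 and 5.07 FPKM in exercise 1 and 2, and 165 and 914 FPKM in exercise 3 and 4. Of the 46, 13 were at 0, among them the endothelial nitric oxide synthase gene Nos3 and Ptprb, the phosphatase that acts on TEK.

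VEGF-A is a classical target of hypoxia signalling. Of 22 genes on the hypoxia list, which also counts the metabolic gene Esrra, 19 had reads and 11 were tested. Of these, 6 were called lower and 0 higher, with a median log2 change of -2.39. The 6 were Egln1, Hif1a, Esrra, Ankrd37, Pfkfb3 and Rbx1. Egln1, the prolyl hydroxylase that marks HIF-1α for degradation, had 399.6, 196, 148 and 175 FPKM in control and 1.33, 0.349, 5.52 and 13.5 FPKM in exercise (log2 difference -5.68, limma adjusted p = 0.00226). Hif1a itself had 25.1, 5.32, 1.74 and 6.60 FPKM in control and at most 0.406 FPKM in exercise (log2 difference -2.73, limma adjusted p = 0.0241). Both were highest in control 1, where Kdr was absent, and both were lowest among controls in control 3, where Vegfa was highest. Esrra, a nuclear receptor of oxidative metabolism, had 0.343, 75.6, 37.6 and 26.6 FPKM in control 1 to 4 and at most 0.247 FPKM in exercise, with the order of Kdr among control 2 to 4 (log2 difference -4.11, limma adjusted p = 0.0278). Eloc, a subunit of the VHL ligase, was not called (limma adjusted p = 0.902), with 364.5 and 1827 FPKM in exercise 3 and 4 and at most 44.9 FPKM elsewhere.

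Several of the genes called lower have no read in exercise, where the fitted change depends on the pseudocount. With groups at 0 set to 3 reads per library, the median log2 change was -1.65 for ligands and receptors, -1.44 for semaphorins and plexins, -1.42 for transducers and -1.64 for the hypoxia pathway, beside -0.79 over all genes tested. All 4 medians were below that of all genes on this scale as well as on the other.

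**Figure D4:**
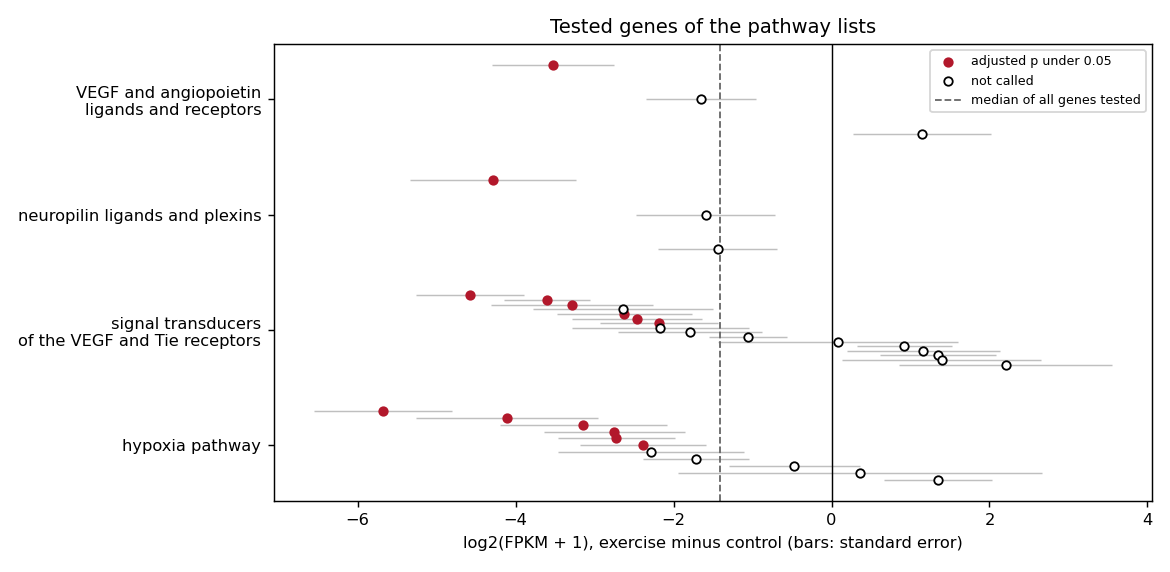
Change of the 33 tested genes of the 4 pathway lists, as the exercise minus control difference of log2(FPKM + 1) on the x axis, with a row of points per list. Red points were called at a limma adjusted p under 0.05, open points were not, grey bars are standard errors, and the dashed line is the median of all genes tested (-1.42). All 14 called genes lie below 0.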

How the data were processed

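RNA was sequenced from sorted SCs of 4 control and 4 exercise samples, grouped by their labels. The authors deposited 1 table of FPKM values per gene. According to the methods, they aligned reads with bowtie 0.12.9, computed FPKM with Cufflinks 2.1.1 and counted reads with HTSeq, and the submitters' processing notes name the mm10 build. Multiplied by gene length, 100.0% of the values were whole multiples of 1 step per library (tolerance 0.001), and the library size in them was the median-of-ratios size factor times the geometric mean of read totals. Depth was 1011737 to 3013354 reads per library. Of the gene identifiers, 99.6% are in GENCODE M21 and 95.2% of these have the same coordinates, as have 9 of the 10 members, all but Angpt1. Positions are those of the file. Values of rows with the same symbol were added, so that 101 fewer rows remained.

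The test was run in limma 3.58.1 (lmFit and eBayes with trend, two-sided, R 4.3.3) on log2(FPKM + 1) of genes whose mean reached 1 FPKM, with Benjamini-Hochberg adjustment over 4328 genes. The deposited unit is FPKM, so the main test was run on the log scale, and the recovered reads entered an alternative (voom). Single members that were not picked for their values were compared by exact two-sided permutation over all 70 ways to split the 8 libraries 4 against 4. Members and lists were chosen with earlier results of these data known. The genes named are all members, up to 5 called genes by adjusted p and the 3 of highest mean FPKM from each list, and the 5 tested genes most correlated with Kdr and with Tek. Grb2 and, from the lists, genes at 0 or singled out by name for their absence were added after their values were seen, and not all genes that the rule gives are described. Some genes of the lists are counted but not reported by name here. The fit was tested on simulated data. Python 3.11.15, numpy 2.4.6, pandas 2.3.3, scipy 1.17.1 and matplotlib 3.10.9 were used.

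The alternatives were a pseudocount of 0.1, no filter, a filter of 1 FPKM in 4 libraries, quantile normalization, a constant sum with and without mitochondrial genes, voom on the recovered reads, array quality weights, no trend, a block on the replicate number, each library left out, exercise 1 and 2 averaged (also with control 4 and exercise 3 left out), and equal depth (1011737 reads).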

Additional observations from a re-analysis of the deposited data

Results flagged for a closer look

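Control 1 stood apart from the other controls for the 2 members that were picked for their values, so this restates the choice and is given as a description, with no test. Kdr in control 1 had a log2(FPKM + 1) of 0, against 10.07 to 11.55 in control 2 to 4. Tek in control 1 had a log2(FPKM + 1) of 0.13, from 1 read, against 0 in the other 3 controls, and with 3 values tied at 0 any single read would stand apart in this way.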

How the results depend on the processing

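Kdr was lower and Tek higher in exercise under each of the alternatives that gave a value, with log2 differences of -10.51 to -6.67 for Kdr (20 alternatives) and 3.52 to 8.48 for Tek (21 alternatives), the largest from voom and the next, 6.92, from a pseudocount of 0.1. Both genes were picked for their values in these libraries, so their sign restates the choice and tests nothing. Vegfa stayed below 0 in all 21, from -2.43 to -0.01, with limma adjusted p from 0.00565 to 0.995. Flt1 and Nrp1 kept their sign in all 15 of theirs, with log2 differences from -0.79 to -0.03 for Flt1 and from 0.12 to 1.04 for Nrp1. Vegfb kept its sign in all 15 but missed the threshold in 10, each of them a design whose smallest exact p is above it. The number of genes called by limma across the table was 1541. It was 840 without a filter, 990 with quantile normalization, 1242 with voom, 2978 with array quality weights and 596 when exercise 1 and 2 were averaged. When that fit also lacked control 4 and exercise 3, limma called 0 genes, with 469 at an unadjusted p under 0.05. Leaving out 1 library gave 527 (without exercise 3) to 1899 (without control 1). Of the members included by family, Vegfa alone passed the main filter. The number called was 0, 1 (Vegfa) with array quality weights and 0 to 0 with 1 library left out. Of the pathway genes 14 were called, and 6 without a filter, 8 with quantile normalization, 8 with voom, 23 with array quality weights (3 higher and 20 lower), 5 when exercise 1 and 2 were averaged, 0 when that fit also lacked control 4 and exercise 3, and 4 (without control 4 or exercise 3) to 18 (without control 1) with 1 library left out. The cause of these shifts was not tested. Same-numbered control and exercise samples were not paired in the main test. Deviations of same-numbered samples correlated at -0.02 to 0.04, and 3 of the 4 controls, all but control 1, correlated best with their own number. These correlations cannot show whether same-numbered samples share a batch. With the replicate number as a block 1059 genes and 8 pathway genes were called, and Vegfa remained without a call. Few reads limit Flt1, Vegfb and the 4 members without reads. At equal depth the log2 difference was -0.91 for Vegfb (exact p = 0.0286) and -0.04 for Flt1 (exact p = 0.429).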
